A study of Mus musculus with 4 samples.

Results

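Carbonic anhydrases are enzymes that interconvert carbon dioxide and bicarbonate. The files list 16 genes with a carbonic anhydrase (Car) symbol, and 7 of them, Car2, Car3, Car4, Car12, Car13, Car14 and Car15, are described here across the cells of the mouse kidney. The 7 genes were listed by symbol and chosen by their levels (CPM) in the cell classes of these libraries, and Car3 was chosen by its higher level under high-fat diet, so the levels of these genes are a description and none of them is tested. Single-cell RNA-Seq (scRNA-Seq) libraries were made from whole kidneys of male C3H mice (C3H/HeJ in the study's methods) that were 18 weeks old, with 1 library for each of 4 conditions. Wild-type (WT) mice and Sweet Pee (SP) mice, called MT in the labels, received normal diet (ND) or high-fat diet (HFD) for 8 weeks from 10 weeks of age, and 60% of the calories of the HFD came from fat. The SP allele is a missense mutation of Slc5a2, the gene of the sodium-glucose cotransporter SGLT2, and is carried in every cell of the animal rather than in the tubule alone. How many animals entered a library is not given in the sources used here. All 4 samples were dissociated by the same enzymatic protocol.

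Carbonic anhydrase activity lets the proximal tubule reclaim filtered bicarbonate and lets intercalated cells of the collecting duct secrete acid or base. The cytosolic enzymes (Car2, Car3, Car13) work inside the cell, whereas Car4 and Car15 encode enzymes tethered to the outer face of the membrane by a lipid anchor, and Car12 and Car14 encode enzymes that span the membrane. Car3 is best known as an abundant protein of skeletal muscle, adipocytes and liver with low catalytic activity.

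The active site of these enzymes holds a zinc ion bound by histidines, and the 30 coding bases around the first pair of those histidines are shown because they are what the 7 genes have in common. The letters were read from the GENCODE M21 transcripts of genome build GRCm38, and capitals mark the 2 histidine codons.
Car2: atccagtttCACtttCACtggggctcatct
Car3: cgccaattcCATcttCACtggggctcctct
Car13: cggcagttcCATttgCACtgggggtcagca
Car4: gtacagttgCACctgCACtggtcaaatggg
Car15: ctgcagctgCACttcCACtggggcagccca
Car12: gagcagctgCACttgCACtgggggaaccgc
Car14: gcccagctcCACctgCACtggggtcagaga
All 7 coding sequences hold both histidine codons. The stretch lies in exon 3 of 7 in Car2 (chr3:14895060-14895089, plus strand), Car3 (chr3:14866841-14866870, plus strand) and Car13 (chr3:14650697-14650726, plus strand). It lies in exon 4 of Car4 (chr11:84964158-84964187, plus strand), Car15 (chr16:17836769-17836798, minus strand), Car12 (chr9:66747638-66747667, plus strand) and Car14 (chr3:95900297-95900326, minus strand).

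The codon of the residue that passes protons out of the active site separates Car3 from the other cytosolic members, so the 30 coding bases around it, all within exon 2, are shown for these 3 genes with that codon in capitals.
Car2: attgtcaacaacggcCACtcctttaacgtt
Car3: atcctgaacaatgggAAGacctgcagagtt
Car13: atcagcaatagtggcCATtccttcaacgtt
The capitals are CAC in Car2 (chr3:14887974-14888003) and CAT in Car13 (chr3:14645177-14645206), both codons of histidine, and AAG in Car3 (chr3:14864390-14864419), a codon of lysine. A histidine codon stood at this place in 5 of the 6 members in which the stretch was found. The place was searched by a fixed pattern of the residues before it (asparagine, any residue, then glycine or serine). Car4 did not give a single match to that pattern, so its residue at this place was not read. Car2 (chr3:14886273-14900770), Car3 (chr3:14863512-14872523) and Car13 (chr3:14641727-14663002) lie in the same orientation on chromosome 3, with 13749 bp between Car3 and Car2 and 200509 bp between Car13 and Car3, an interval that also holds Car1. Car4 lies at chr11:84957786-84966044 and Car12 at chr9:66713686-66766845, both on the plus strand.

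After the study's filters on genes and mitochondrial UMIs (200 to 5000 genes and under 50% mitochondrial UMIs), 34789 cells were kept, between 6754 and 10869 a library, with 48829925 to 69542313 UMIs a library. The study also removed doublets, by a caller and by hand, and analysed fewer cells than these, and those steps were not repeated here. Barcodes with 50% or more mitochondrial UMIs were 32.7% to 49.8% of a library. Each pair of libraries shared 54 to 77 cell barcodes. Each cell was given to 1 of 16 classes by the UMIs of its markers and the classes are called "-like", because 4489 of the 34789 cells lie within 0.05 of the score margin that decides a class. In every class the 10 genes with the highest fold over the other cells held 1 to 5 of its own markers and 0 markers of another class. The cells were given to classes by these same markers, so this count does not check the classes. In the B cell-like class 1 own marker was among those 10 genes, beside the plasma cell genes Jchain, Igkc and Igha. The WT-HFD library stood apart, with 2318 cells left without a class because 2 classes scored alike, against 454 to 933 in the other libraries. Of those 2318 cells, 621 scored for both proximal tubule S1-S2 and thick ascending limb. Slc5a2 itself was at 161.6 UMIs per 1000000 UMIs (CPM) on ND and 99.6 on HFD in WT, and 22.3 on ND and 23.3 on HFD in SP, which does not check the labels, since a missense mutation need not change the level. Levels below are CPM of the UMIs summed over a group of cells, 95% intervals in brackets cover counting error only, and values in 4 libraries stand in the order WT on ND, WT on HFD, SP on ND, SP on HFD. With 1 library per condition, no difference below has a replicate check and none was tested.

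The 7 genes differed in the cell classes where they were highest, and for Car2, Car12, Car13, Car14 and Car15 the range of the highest class or pair of classes over the 4 libraries did not overlap that of the next class. Car2 was highest in the type B and type A intercalated-like cells, and Car12 and Car15 in type B intercalated-like cells. Car14 was highest in thin limb-like cells, Car4 in thick ascending limb-like and proximal tubule-like cells, Car13 in podocyte-like cells and Car3 in proximal tubule S1-S2-like cells. The map of mean levels shows these places for 15 classes, leaving out an erythroid-like class of too few cells.

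**Figure D1:**
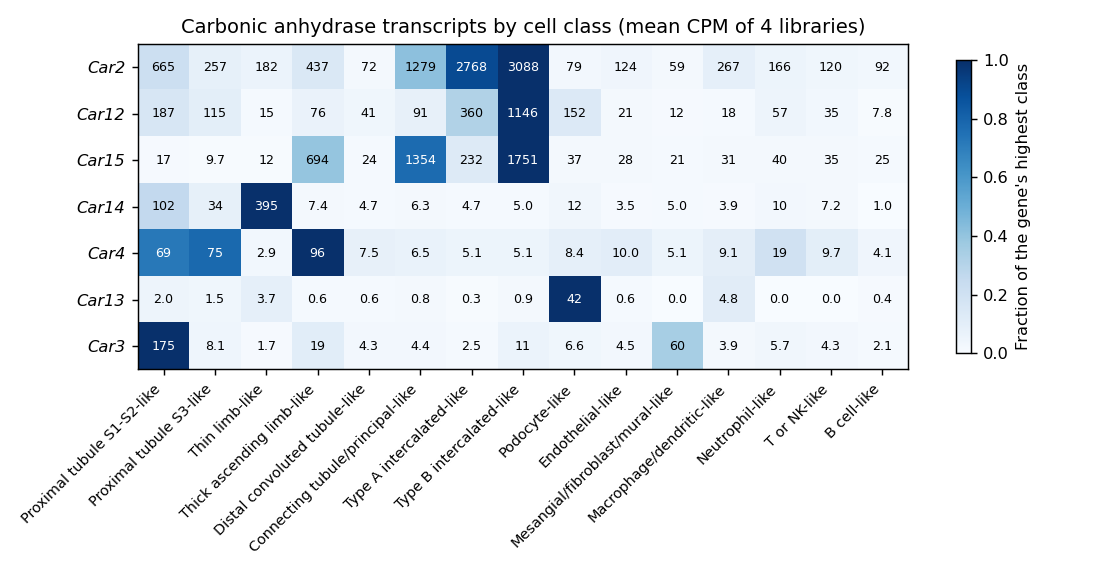
Mean CPM of 4 libraries for each of the 7 carbonic anhydrases (rows) in 15 cell classes (columns), printed in each square and shaded as a fraction of the gene's own highest class, so that shades compare classes within a gene and not genes. Car13 stands at 42 CPM in podocyte-like cells and at no more than 4.8 elsewhere, and Car14 at 395 CPM in thin limb-like cells.

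Car3 was the member with the largest difference between diets. Over all kept cells it was at 10.0 CPM on ND [9.27, 10.9] and 96.6 on HFD [94.3, 99.0] in WT, and 1.39 on ND [1.08, 1.75] and 64.6 on HFD [62.3, 66.9] in SP. Both HFD libraries lay above both ND libraries. The ratio of HFD to ND was 9.62-fold in WT (3.27 on the log2 scale [3.15, 3.39]) and 46.5-fold in SP (5.54 [5.20, 5.90]). In a sum over the kidney, fewer cells of a type and less RNA per cell cannot be told apart. Where a library of the pair reached 10 CPM, genes were ranked by this ratio, and Car3 had the rank 3 from the top of 8410 genes in WT and 8 of 8791 in SP. Of these genes, 1.83% in WT and 2.15% in SP were at or past 2-fold in either direction. Among the 6 members with at least 10 CPM, Car3 was the only such gene in each genotype, and since Car3 was listed for this difference nothing is read from that count.

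Most Car3 UMIs were in proximal tubule S1-S2-like cells, the early and middle parts of the proximal tubule, which held 75.3% of them on ND and 61.8% on HFD in WT, and 66.2% on ND and 90.6% on HFD in SP. In these cells Car3 was at 22.1 CPM on ND [20.1, 24.2] and 266 on HFD [258, 274] in WT, and 3.35 on ND [2.46, 4.45] and 408 on HFD [394, 424] in SP. The ratio of HFD to ND was 12.0-fold in WT (log2 3.59 [3.45, 3.73]) and 122-fold in SP (log2 6.93 [6.52, 7.38]). The SP ratio was larger by 3.34 on the log2 scale [2.90, 3.78], and the lower SP-ND level entered that difference as well as the higher SP-HFD level. The SP-ND level rests on 47 UMIs in 15 of 1150 cells, and the intervals do not cover the spread between cells. The log2 ratio of SP to WT in S1-S2-like cells was -2.72 [-3.19, -2.29] on ND and 0.62 [0.55, 0.69] on HFD. Over all kept cells it was -2.86 on ND and -0.58 on HFD, so on HFD the direction differed between the kidney sum and the S1-S2-like cells. The S1-S2-like cells made up 25.0% of kept cells on ND and 15.9% on HFD in WT, and 17.0% on ND and 7.78% on HFD in SP. With the class shares held equal in all libraries, the log2 ratio of SP to WT on HFD over all kept cells was 0.20. These cells also differed in depth, with a median of 6339, 6015, 12369 and 10193 UMIs.

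In proximal tubule S3-like cells, the last part of the same segment, Car3 was low. It was at 6.28 CPM on ND [4.4, 8.70] and 7.93 on HFD [5.03, 11.9] in WT, and 0 on ND [0, 2.65] and 18.0 on HFD [12.4, 25.3] in SP. The WT libraries overlapped within counting error there (log2 ratio of HFD to ND 0.34 [-0.49, 1.13]). Within the proximal tubule-like cells, Car3 was higher at the S1-S2 end of the marker score than at the S3 end in every library. The lowest step of that score is the S3-like class itself, so its values repeat those above. Car3 rose at every step only in WT-HFD. In WT-HFD it was at 7.93 CPM in cells that scored higher for S3 and at 155, 280 and 327 CPM in 3 steps of rising S1-S2 score. In SP-HFD the same steps were at 18.0, 220, 463 and 429 CPM, so the last 2 steps were not in rising order. In WT-ND they were at 6.28, 2.97, 19.5 and 43.2 CPM, and in SP-ND at 0, 0.871, 0.731 and 9.82 CPM.

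**Figure D2:**
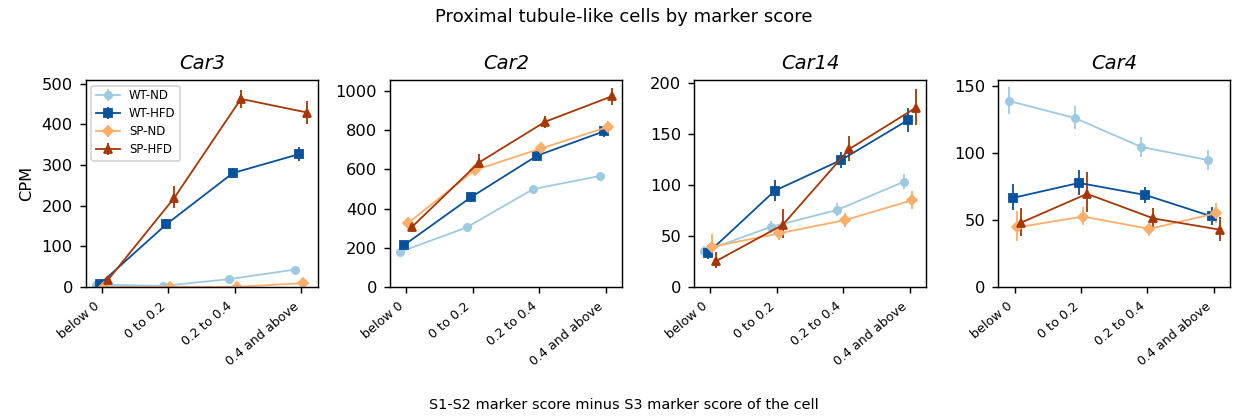
CPM (vertical axis, counting intervals as bars) of Car3, Car2, Car14 and Car4 in proximal tubule-like cells, split by the S1-S2 marker score minus the S3 marker score of the cell (horizontal axis), 1 line per library. In both HFD libraries Car3 goes from under 20 CPM in cells scoring higher for S3 to over 300 CPM at the S1-S2 end, and Car2 and Car14 are higher at the S1-S2 end in every library.

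The Car3 UMIs were concentrated in a minority of S1-S2-like cells. A Car3 UMI was found in 3.27% of these cells on ND and 37.6% on HFD in WT, and 1.30% on ND and 42.7% on HFD in SP. In lymphocyte-like cells, which should lack the gene, the shares were 0% [0, 2.02], 5.17%, 0% [0, 3.03] and 1.22%, at a median of 1883, 3452, 2494 and 3129 UMIs. After each cell was thinned to 1000 UMIs, with 42 to 383 shallower S1-S2-like cells a library left out, the S1-S2-like shares were 1.07%, 13.5%, 0.186% and 22.6%. The lymphocyte-like shares were then 0%, 1.32%, 0% and 0%. The order of the libraries was the same before and after thinning, and in both HFD libraries the S1-S2-like share stood above the lymphocyte-like share. Cells with 5 or more Car3 UMIs numbered 22 on ND and 176 on HFD in WT, and 3 on ND and 129 on HFD in SP. These cells were 0.809%, 11.4%, 0.261% and 22.2% of the class and held 78.0%, 82.6%, 59.6% and 92.4% of its Car3 UMIs. The highest count in a single cell was 58, 108, 11 and 125 UMIs.

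**Figure D3:**
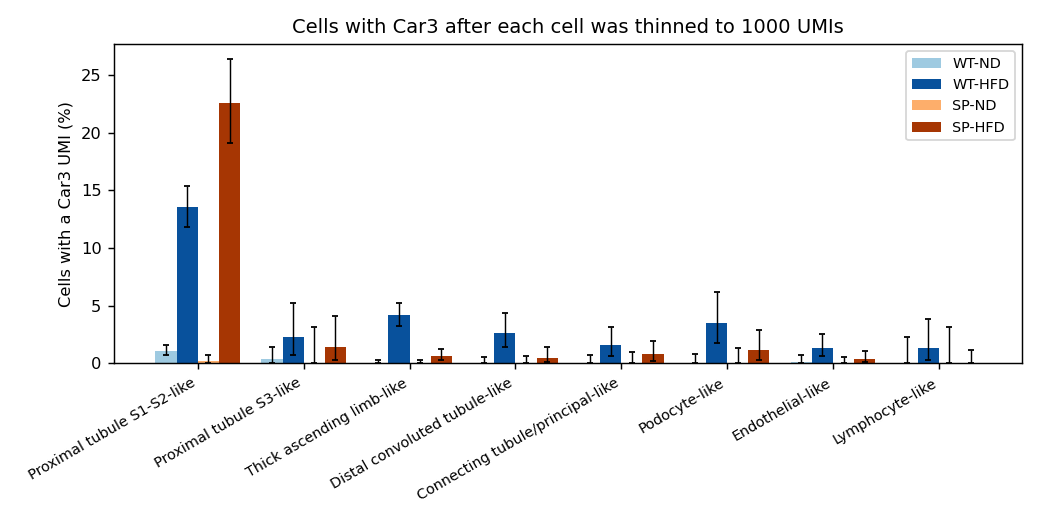
Share of cells with a Car3 UMI (vertical axis, %, bars with 95% Clopper-Pearson intervals) in 8 cell classes after thinning to 1000 UMIs, 1 bar per library. The 13.5% of WT-HFD and 22.6% of SP-HFD S1-S2-like cells stand above every other bar.

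Within the S1-S2-like cells of at least 5000 UMIs, the Car3-high cells (5 or more UMIs, a split chosen after the levels were seen) were compared with cells that had no Car3 UMI. Car14 was at 165 CPM in the 160 Car3-high cells of WT-HFD and at 115 in the 484 cells with none. In SP-HFD it was at 169 CPM in 123 Car3-high cells and at 112 in 171 cells with none. In WT-ND, with 20 and 1531 cells, Car14 was at 78.9 and 79.6 CPM. Slc7a13, a transporter gene of the S3 segment, was lower in the Car3-high cells, at 47.2 against 130 CPM in WT-HFD and 66.4 against 140.1 in SP-HFD. The Car3-high cells were deeper, with a median of 22085 against 12087 UMIs in WT-HFD and 19269 against 14515 in SP-HFD, and the part of depth in these differences was not tested.

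Outside the proximal tubule, Car3 was low on ND and higher on HFD in most classes, most of all in WT-HFD. In thick ascending limb-like cells it was at 0.686, 68.4, 0.18 and 5.13 CPM, in type B intercalated-like cells at 1.03, 38.2, 0 and 4.27, and in podocyte-like cells at 0.391, 21.2, 0 and 4.95. Only the WT-HFD library was high in these 3 classes. Genes of other cells are given beside these values. Per 100 UMIs of Slc34a1, the phosphate cotransporter gene of the proximal tubule, Car3 in WT-HFD had 8.26 UMIs in S1-S2-like cells, 16.8 [15.5, 18.1] in thick ascending limb-like cells, 20.1 [14.9, 26.6] in type B intercalated-like cells and 14.9 [10.9, 19.9] in podocyte-like cells. In SP-HFD the same ratio was 13.5 in S1-S2-like cells and 6.95, 8.97 and 5.74 in those 3 classes. Other classes of WT-HFD were not all above the S1-S2-like value. Distal convoluted tubule-like, connecting tubule or principal-like, type A intercalated-like and endothelial-like cells were at 6.65, 5.82, 5.62 and 8.29. On few UMIs, macrophage or dendritic-like, T or NK-like, B cell-like and mesangial, fibroblast or mural-like cells were at 8.74, 10.9, 12.2 and 53.7. Slc34a1 is a marker of the S1-S2 class, so this ratio depends in part on how cells were given to classes. In WT, Slc34a1 had 1604 of 7290886 UMIs on ND and 4689 of 11488777 on HFD in thick ascending limb-like cells. In podocyte-like cells it had 814 of 2559432 on ND and 356 of 2497265 on HFD. Car3 per 100 Slc34a1 UMIs in the S1-S2-like cells of WT was itself 0.80 on ND and 8.26 on HFD. Slc34a1 counts alone therefore do not tell where the Car3 UMIs of these classes came from. Thick ascending limb-like cells of WT-HFD with 0 to 4 Slc34a1 UMIs (82.3% of the class) had 21.3 CPM of Car3, those with 5 to 19 had 191 and those with 20 or more had 336. Umod, the uromodulin gene that marks the thick limb, went the other way over the same cells, at 14789, 4327 and 3145 CPM. Umod is itself a marker of the thick limb class, so this order depends in part on how cells were given to classes. The median depth of these 3 groups of cells was 4254, 7042 and 15394 UMIs. Igkc, an immunoglobulin gene of plasma cells, was also at 27.7 CPM on ND and 2909 on HFD in the WT thick ascending limb-like cells, and at 2.79 and 932 in those of SP. The part of RNA from other cells in the Car3 level of these classes was not tested. In the cells left without a class because 2 classes scored alike, Car3 was at 1.62, 93.9, 0.926 and 28.4 CPM. In WT-HFD these cells held 20.0% of the Car3 UMIs, more than the 11.7% of the thick ascending limb-like cells.

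**Figure D4:**
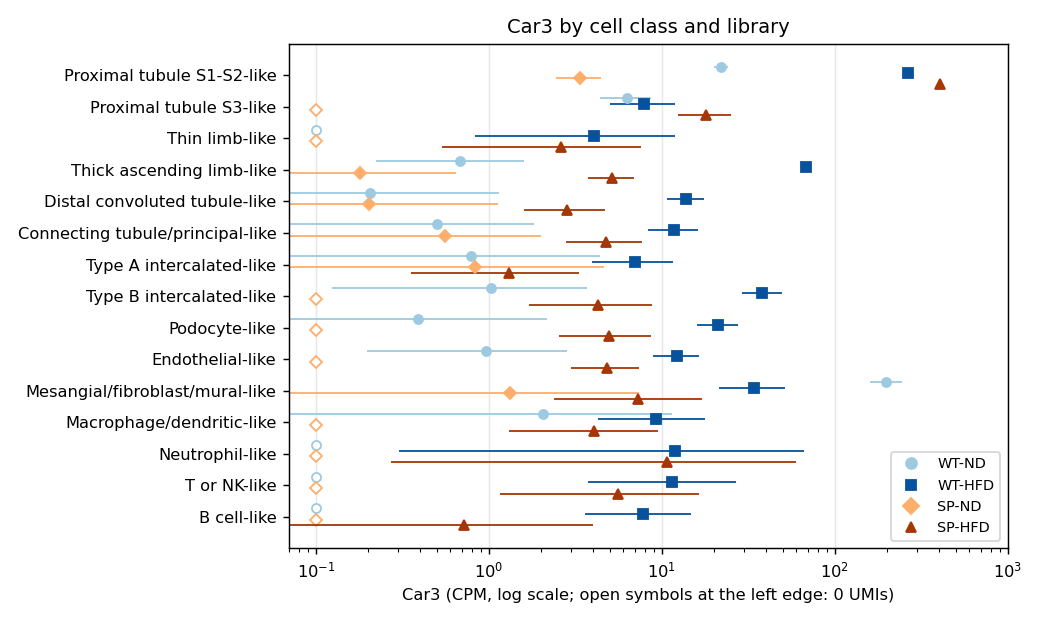
CPM of Car3 on a log axis (points, with exact Poisson 95% intervals as lines) in 15 cell classes, with 1 symbol per library and open symbols at the left edge for 0 UMIs. The S1-S2-like cells of WT-HFD (266) and SP-HFD (408) stand farthest right, the mesangial, fibroblast or mural-like class of WT-ND is at 198, and no other class exceeds 68.4.

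The mesangial, fibroblast or mural-like class was the exception to the order of diets, with 198 CPM on ND and 34.1 on HFD in WT, and 1.32 on ND and 7.32 on HFD in SP. All 90 Car3 UMIs of this class in WT-ND came from 3 of its 120 cells, and the level without those 3 was 0. In WT-HFD 19 of 22 UMIs came from 1 cell, and the level without it was 4.69 CPM. All 4 cells had UMIs of Dcn, the decorin gene of fibroblasts, and 0 UMIs of the adipocyte list and of Acta2. Dcn and Acta2 are themselves markers of this class, so their counts depend in part on how cells were given to classes. The class ranges of Car3 over the 4 libraries overlapped between all neighbours in the order of classes.

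Car3 is a known gene of fat, muscle and liver, so markers of those tissues were measured beside it. In the S1-S2-like cells, 6 of 7 adipocyte genes (all but Fabp4, which endothelial cells also carry) were at 0 UMIs in every library, and the list summed to 4.75, 23.7, 5.77 and 22.7 CPM. All 5 skeletal muscle genes were at 0 UMIs there in every library. Over all kept cells the muscle list had 10 to 40 UMIs a library. The hepatocyte list summed to 2205, 2990, 1357 and 3502 CPM in S1-S2-like cells, nearly all from Ttr and Cyp2e1, which the proximal tubule also expresses. Alb, the albumin gene that defines hepatocytes, was at 2.74, 3.39, 5.27 and 8.72 CPM.

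Among proximal tubule-like cells as a whole (S1-S2 and S3), the genes that reached 100 CPM in either library numbered 1120 in the WT pair and 1180 in the SP pair. In WT the highest HFD to ND ratios were those of Igkc (log2 3.88), Car3 (3.59), Ccl28 (2.76), Pck1 (2.49) and Igha (2.43). In SP they were those of Igha (8.6), Igkc (8.14), Jchain (7.57), Car3 (6.75) and Ccl28 (5.15). Igkc, Igha and Jchain are plasma cell genes, Ccl28 encodes a chemokine and Pck1 a key enzyme of gluconeogenesis. No ambient correction was applied, and the part of RNA from other cells in these ratios was not tested. Among the 5 lowest ratios in each genotype were those of Fabp1, the liver-type fatty acid-binding protein gene (log2 -3.54 in WT and -6.56 in SP), and of Cyp4a genes of fatty acid oxidation (Cyp4a10 at -1.75 in WT and -3.09 in SP, Cyp4a14 at -9.37 in SP). The 5 lowest also held Ugt3a1, Cela1 and Cyp2a4 in WT (-1.46 to -1.34) and Acot1 and Acmsd in SP (-3.37 and -2.42).

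The gene most like Car3 over 58 profiles of class and library was Gldc, encoding glycine decarboxylase (r = 0.69), followed by Spp2 (0.65) and Pck1 (0.62). These profiles come from 15 classes in the same 4 libraries, so they share libraries and depth, and the correlations describe 11585 genes with no test.

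Car2, the main cytosolic enzyme of the kidney, was at 529 CPM over all kept cells on ND and 639 on HFD in WT, and 639.8 on ND and 745 on HFD in SP. The WT-ND library was lowest and the SP-HFD library highest. The HFD to ND log2 ratio was 0.27 [0.25, 0.29] in WT and 0.22 [0.20, 0.24] in SP. By class, Car2 was highest in type B intercalated-like cells (3042, 3285, 2696 and 3328 CPM) and type A intercalated-like cells (2135, 3327, 2175 and 3433), the cells that secrete base and acid. The ranges of these 2 classes overlapped, and both stood above connecting tubule or principal-like cells (1113 to 1465 CPM). S1-S2-like cells followed with 458, 657, 701 and 844 CPM, a range that overlapped that of thick ascending limb-like cells (381 to 536). Lymphocyte-like cells had 55.0 to 163 CPM, and the levels of podocyte-like, endothelial-like and distal convoluted tubule-like cells (59.3 to 144 CPM) lie within that range.

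In type A intercalated-like cells Car2 was higher on HFD in both genotypes by a like amount, log2 0.64 [0.58, 0.70] in WT and 0.66 [0.60, 0.72] in SP. Both HFD libraries lay above both ND libraries in this class. The class held 8.39% of the Car2 UMIs on ND and 15.9% on HFD in WT, and 7.93% on ND and 29.0% on HFD in SP. In S1-S2-like cells the HFD to ND log2 ratio was 0.52 [0.48, 0.56] in WT and 0.27 [0.22, 0.31] in SP. The SP ratio there depended on the filter, and was -0.10 when only cells under 30% mitochondrial UMIs were kept. Along the proximal tubule Car2 was lowest in the S3-like cells, at 180, 215, 327 and 308 CPM. In macrophage or dendritic-like cells Car2 was at 126, 433, 269 and 239 CPM, with the WT-HFD library alone high. The genes most like Car2 across classes were Nedd4l (r = 0.87), a ubiquitin ligase gene, Eps8 (0.85) and Atp6v0c (0.85), which encodes a subunit of the proton pump.

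Car13, the remaining cytosolic member, was at 2.71, 3.21, 3.09 and 3.24 CPM over all kept cells, which lay within counting error of each other. It was a podocyte gene in these libraries. In podocyte-like cells it was at 37.9 CPM on ND [30.7, 46.2] and 47.7 on HFD [39.5, 57.0] in WT, and 39.8 on ND [32.1, 48.8] and 44.2 on HFD [36.2, 53.4] in SP. The next class, macrophage or dendritic-like cells, reached 3.24 to 6.21 CPM, and lymphocyte-like cells had 0 to 0.632. The podocyte-like cells held 53.4% to 67.7% of the Car13 UMIs of a library. The log2 ratio of HFD to ND in them was 0.33 [-0.07, 0.73] in WT and 0.15 [-0.27, 0.57] in SP, and both intervals hold 0. The genes most like Car13 were Crb2, a polarity gene of podocytes (r = 0.96), Hs3st3a1 (0.96) and Tmem54 (0.96).

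Car4, the lipid-anchored enzyme of the proximal tubule brush border and thick limb, was at 68.2 CPM over all kept cells on ND and 51.2 on HFD in WT, and 37.6 on ND and 30.2 on HFD in SP. Both SP libraries lay below both WT libraries, with a log2 ratio of SP to WT of -0.86 [-0.94, -0.78] on ND and -0.76 [-0.85, -0.67] on HFD. The HFD to ND log2 ratio was -0.42 [-0.48, -0.35] in WT and -0.31 [-0.41, -0.22] in SP. S1-S2-like cells made up 25.0% of kept cells on ND and 15.9% on HFD in WT. In SP they made up 17.0% on ND and 7.78% on HFD. The part of class shares in these Car4 sums was not tested. The 3 highest classes overlapped. Thick ascending limb-like cells had 78.7, 116, 87.0 and 102 CPM, S3-like cells had 139, 66.6, 44.6 and 48.0, and S1-S2-like cells had 108, 66.3, 49.8 and 52.0. No other class averaged more than 18.8 CPM, and lymphocyte-like cells had 3.79 to 14.3.

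The WT-ND library was the high library for Car4 in both proximal tubule-like classes, but not in the thick limb. In WT the HFD to ND ratio was log2 -0.71 [-0.82, -0.60] in S1-S2-like cells, -1.06 [-1.30, -0.83] in S3-like cells and 0.56 [0.42, 0.71] in thick ascending limb-like cells. In SP it was 0.06 [-0.12, 0.25], 0.11 [-0.38, 0.60] and 0.22 [0.09, 0.36]. The SP sum over all kept cells was lower on HFD, whereas none of these SP ratios was. The log2 ratio of SP to WT in the same classes was -1.12, -1.64 and 0.14 on ND. On HFD it was -0.35, -0.47 and -0.19. The share of Car4 UMIs that came from the S1-S2-like cells was 54.4% in WT-ND and 24.7% to 36.3% in the other libraries. The genes most like Car4 were Mfsd4b1 (r = 0.92), Slc5a1, the gene of the glucose cotransporter SGLT1 (0.87), and Cldn10, a tight junction gene (0.86).

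Car15, the other lipid-anchored member, was at 271 CPM over all kept cells on ND and 241 on HFD in WT, and 359.9 on ND and 382 on HFD in SP. Both SP libraries lay above both WT libraries, by log2 0.41 [0.38, 0.44] on ND and 0.66 [0.63, 0.69] on HFD. Thick ascending limb-like cells made up 12.8% of kept cells on ND and 17.9% on HFD in WT. In SP they made up 21.0% on ND and 18.0% on HFD. Within these cells the log2 ratio of SP to WT on ND was 0.05, and on HFD WT was at 388 CPM and SP at 815. The part of class shares in the Car15 sums was not tested. Counts of Car15 (chr16:17835276-17838364) could include a read-through gene that overlaps it on the same strand in the annotation. Car15 was highest in type B intercalated-like cells (1479, 1989, 1423 and 2115 CPM) and connecting tubule or principal-like cells (1298, 1116, 1544 and 1456 CPM), and these ranges overlapped. Thick ascending limb-like cells followed with 771, 388, 800.5 and 815 CPM. Here the WT-HFD library stood alone, with a log2 ratio of HFD to ND of -0.99 [-1.05, -0.93] in WT and 0.03 [-0.02, 0.07] in SP. Slc12a1, the sodium-potassium-chloride cotransporter gene that defines the thick limb, was also lowest in WT-HFD in these cells, at 5478, 3142, 5238 and 4593 CPM. The part of this in the Car15 value was not tested.

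Car15 was found in a portion of the thick ascending limb-like cells. After thinning to 1000 UMIs a Car15 UMI was found in 33.4% of them on ND and 18.9% on HFD in WT, and 31.8% on ND and 25.2% on HFD in SP, against 43.6%, 38.6%, 45% and 37.2% without thinning. In lymphocyte-like cells the thinned shares were 6.83%, 1.76%, 1.72% and 3.40%.

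In type A intercalated-like cells Car15 was at 170 CPM on ND and 310 on HFD in WT, and 70.3 on ND and 378 on HFD in SP. Both HFD libraries were high, with a log2 ratio of 0.87 [0.64, 1.10] in WT and 2.42 [2.1, 2.76] in SP. Aqp2, the water channel gene of principal cells, was also higher on HFD in both genotypes over these cells, at 279, 457, 150 and 347 CPM. In the cells with 0 to 4 Aqp2 UMIs, a subset chosen after the levels were seen, Car15 was at 82.1, 234, 50.4 and 335 CPM. Cells with 5 or more Car15 UMIs were 2 of 168, 27 of 129, 1 of 100 and 59 of 215 in this subset. They held 33.3%, 72.5%, 11.1% and 80.3% of its Car15 UMIs. The cut is a count of UMIs, and the median depth of the class was 5507, 13736.5, 10989.5 and 11629 UMIs. The part of depth and of RNA from other cells in these Car15 values was not tested. In type B intercalated-like cells the log2 ratio was 0.43 [0.35, 0.50] in WT and 0.57 [0.49, 0.65] in SP. The genes most like Car15 were Muc1, a membrane mucin gene (r = 0.90), B830017H08Rik (0.89) and Atp4a, a proton-potassium pump gene (0.87).

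Car12, a membrane-spanning enzyme, was at 166 CPM over all kept cells in WT-ND and 137, 137 and 152 in the other libraries. The HFD to ND log2 ratio was -0.28 [-0.32, -0.24] in WT and 0.15 [0.11, 0.20] in SP, so the 2 genotypes went in opposite directions by small amounts. Type B intercalated-like cells had 1128, 922, 1232 and 1303 CPM, above every other class in every library. Type A intercalated-like cells came next with 365, 331, 344 and 401 CPM, and also stood clear of the class that followed. S1-S2-like cells had 188, 192, 170 and 199 CPM and podocyte-like cells 132, 159, 172 and 146, and these ranges overlapped. All 4 classes lay above the 8.79 to 42.8 CPM of lymphocyte-like cells. In S1-S2-like cells the HFD to ND log2 ratio was 0.03 [-0.04, 0.10] in WT and 0.23 [0.13, 0.32] in SP. The genes most like Car12 were Tesk2 (r = 0.86), 4732463B04Rik (0.84) and Clcn5, which encodes a chloride-proton exchanger of endosomes (0.84).

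Car14, the second membrane-spanning member, was at 40.0 CPM over all kept cells on ND and 50.4 on HFD in WT, and 27.3 on ND and 37.2 on HFD in SP. Each HFD library was above the ND library of its genotype, by log2 0.33 [0.26, 0.41] in WT and 0.45 [0.35, 0.55] in SP. Thin limb-like cells were highest, with 375 CPM on ND [331, 424] and 320 on HFD [280, 363] in WT, and 368 on ND [320, 421] and 516 on HFD [475, 559] in SP. These values come from 66 to 129 cells a library. S1-S2-like cells followed with 79.3 CPM on ND and 129 on HFD in WT, and 66.8 on ND and 134 on HFD in SP, and S3-like cells with 35.3, 33.8, 39.5 and 25.6. No 2 of these 3 classes overlapped. Car14 (chr3:95897768-95904691) overlaps Aph1a on the opposite strand, and the strand setting of the counting is not given in the sources used here.

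In the S1-S2-like cells, where Car3 also lay, Car14 was higher on HFD in both genotypes, by log2 0.70 [0.60, 0.79] in WT and 1.00 [0.87, 1.14] in SP. Both HFD libraries stood above both ND libraries. The S3-like cells did not share this order, with a log2 ratio of -0.06 [-0.42, 0.29] in WT and -0.62 [-1.22, -0.04] in SP. In thin limb-like cells the ratio was -0.23 [-0.49, 0.03] in WT and 0.49 [0.26, 0.72] in SP. The genes most like Car14 were Agt, the angiotensinogen gene (r = 0.90), Galnt14 (0.90) and 1700016C15Rik (0.89).

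**Figure D5:**
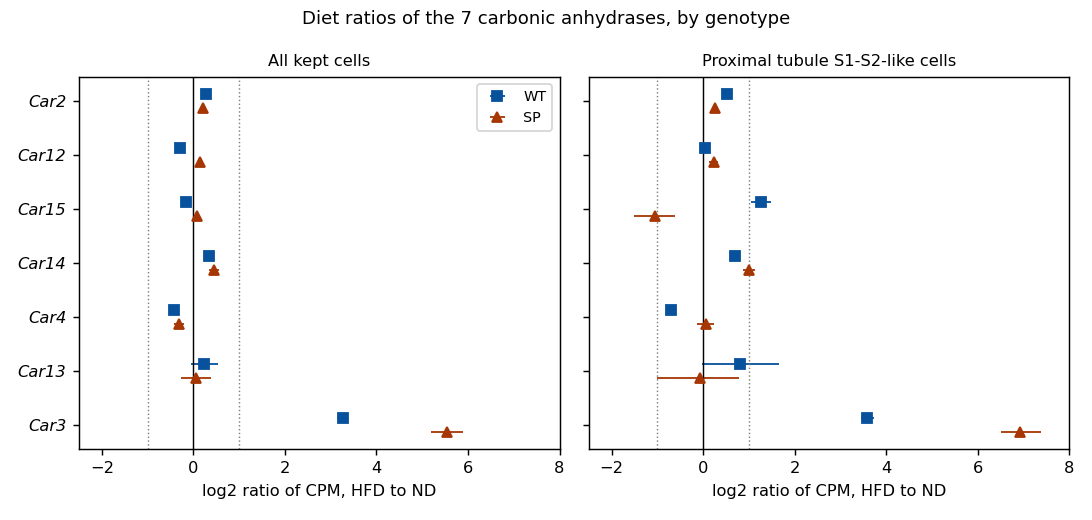
Log2 ratio of CPM, HFD to ND (horizontal axis, with 95% counting intervals), of the 7 carbonic anhydrases in all kept cells (left) and in S1-S2-like cells (right), for WT (squares) and SP (triangles), with dotted lines at 2-fold. Car3 lies at 3.27 and 5.54 on the left and at 3.59 and 6.93 on the right, and Car15 lies on opposite sides of 0 in S1-S2-like cells, where it was below the lymphocyte-like level in 3 of the 4 libraries and above it in WT-HFD.

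Counted over the members in S1-S2-like cells, 6 had at least 10 CPM in a library of the pair. At or past 2-fold were 2 of them in WT, Car3 and Car15, both higher on HFD, beside 3.54% of 6958 genes in either direction. In SP they were 3, Car3 and Car14 higher and Car15 lower, beside 5.10% of 7057 genes. The Car15 level there was 13.7, 32.8, 15.4 and 7.43 CPM. It was below the level in lymphocyte-like cells (40.8, 10.1, 43.3 and 27.4 CPM) in 3 of the 4 libraries and above it in WT-HFD. Aqp2 and Umod, genes of other segments, were also highest in WT-HFD among these cells, at 39.7 and 227 CPM, and the part of RNA from other cells in the Car15 value was not tested. Between genotypes over all kept cells, 1 of 6 members was at or past 2-fold on ND, Car3, lower in SP (beside 1.35% of 8515 genes), and 0 of 6 on HFD (beside 0.735% of 8704 genes). The median gene of the SP-HFD to WT-HFD comparison was itself at log2 0.19, so the Car2 and Car12 ratios of that comparison (0.22 and 0.15) were close to that of the median gene.

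Over all kept cells the other 9 genes with a Car symbol in the files were low, except Car5b, which encodes a mitochondrial enzyme. They are listed by symbol alone, and whether each encodes an active enzyme was not examined. Car5b was at 26.1 CPM on ND and 25.7 on HFD in WT, and 26.6 on ND and 24.8 on HFD in SP, with log2 ratios of HFD to ND of -0.03 in WT and -0.10 in SP. Car7, Car8, Car9 and Car11 were at 0.881 to 6.1 CPM in every library, and Car1, Car5a, Car6 and Car10 at no more than 0.173. In endothelial-like cells Car7 was at 24.7, 28.2, 38.2 and 33.5 CPM and Car8 at 13.5, 25.4, 40.7 and 40.9 CPM. At 0 to 3 UMIs a library, Car1, the neighbour of Car3 and a red cell enzyme gene, was at the limit of detection.

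Other genes of renal acid-base handling were described from a list of 37. Over all kept cells 29 of them had at least 10 CPM in the WT pair and 30 in the SP pair. At or past 2-fold on HFD were 2 in WT and 3 in SP, all higher and 0 lower, beside 1.83% and 2.15% of all genes in either direction. In WT these were Pck1 (log2 2.11) and Slc26a7, an anion transporter gene of intercalated cells (1.52). In SP they were Pck1 (2.25), Slc26a7 (1.68) and Slc4a1, the basolateral bicarbonate exchanger gene of type A cells (1.13). Type A intercalated-like cells made up 1.74% of kept cells on ND and 1.71% on HFD in WT. In SP they made up 1.60% on ND and 3.44% on HFD. They held 1263487 of 60809004 UMIs on ND and 2130074 of 69542313 on HFD in WT. In SP they held 1194494 of 51176534 UMIs on ND and 3075031 of 48829925 on HFD. The part of these shares in the sums was not tested. The median ratio of the list was 0.06 in WT and 0.29 in SP, beside -0.02 and 0.07 over all genes. Slc4a4, the bicarbonate exit transporter gene of the proximal tubule, was at -0.69 in WT and -0.70 in SP over all kept cells, and at -0.32 and 0.05 in S1-S2-like cells.

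In S1-S2-like cells 18 genes of the list could be described in each pair, and 5 of them were at or past 2-fold, all higher on HFD, with 0 lower, beside 3.54% of all genes in WT and 5.10% in SP in either direction. Among these in WT were Pck1 (log2 2.69) and 3 genes of the distal nephron, Rhbg (1.90), Rhcg (1.51) and Atp6v1g3 (1.44), of which the first 2 encode ammonia transporters and the last a proton pump subunit. Slc4a1, at 1.01 CPM in WT-ND and 4.48 in WT-HFD, moved with these 3 genes within the class, and the part of RNA from other cells was not tested. Among these in SP were Pck1 (3.12), Glud1, the glutamate dehydrogenase gene (1.42), Slc38a3, a glutamine transporter gene (4.37, from 0.712 to 14.7 CPM), and Slc26a6, an anion exchanger gene (2.75, from 1.57 to 10.6 CPM). Pck1 was past 2-fold in both genotypes. The median of the list was 0.43 in WT and 0.18 in SP, beside 0.00 over all genes in both pairs.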

How the data were processed

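scRNA-Seq was analysed from 4 kidney libraries, 1 per condition. The authors made UMI counts per gene and barcode with Cell Ranger (2.1.1 per the processing notes, 6.1.2 per the file headers, build mm10) and deposited the counts without normalization. Every barcode holds at least 500 UMIs. Genes in fewer than 3 cells were dropped, and cells with 200 to 5000 genes and under 50% mitochondrial UMIs were kept. No ambient correction was applied and no doublet caller was run.

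The 7 members, the marker lists (76 genes of 16 classes), the acid-base list and the alternatives were chosen with earlier results of these data known. A gene of the acid-base list is counted but not reported by name here. Named genes are the members, the other Car genes, the lists, the 3 genes most like each member and the 5 highest and 5 lowest ratios among proximal tubule-like genes of at least 100 CPM. A cell took the class with the highest mean marker score, if that was at least 0.2, rested on at least 2 markers and exceeded the next class by 0.1. Cells without such a margin, which may include doublets, stayed without a class. The proximal tubule segments were the exception and were not rivals of each other for this margin. S1-S2-like and S3-like cells were therefore split by the higher score alone.

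CPM are UMIs of a gene per 1000000 UMIs of the group, with exact Poisson 95% intervals. Ratios have exact conditional binomial intervals and shares Clopper-Pearson intervals. Likeness is Pearson's r of log2(CPM + 10) over classes of at least 50 cells, among genes that reach 20 CPM. Detection was also computed after thinning to 1000 UMIs. Replicates are absent, so no p-value is given, and an additive model of diet and genotype was not fitted. The log2 ratios and their intervals were tested on simulated Poisson counts. Cell classes, thinning, likeness and the spread between cells were not simulated. The work used pandas 2.3.3, scipy 1.17.1 and numpy 2.4.6 in Python 3.11.15, and matplotlib 3.10.9 for the plots.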

Additional observations from a re-analysis of the deposited data

Results flagged for a closer look

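Car12 went in opposite directions with diet in the 2 genotypes over all kept cells, with a log2 ratio of HFD to ND of -0.28 in WT and 0.15 in SP. Car15 was at -0.17 in WT and 0.086 in SP, where the median gene was itself at 0.07. With 1 library per condition neither difference was tested. The Car15 ratio in SP was -0.03 when mitochondrial UMIs were left out of the scaling. It was -0.06 under 30% mitochondrial UMIs and -0.04 as a mean over cells.

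Car3 was also present in the barcodes that the filters removed, at 65.3 CPM on HFD against 1.95 on ND in WT, and at 45.5 CPM on HFD against 0.496 on ND in SP. Per 100 Slc34a1 UMIs these barcodes held 7.10 Car3 UMIs on HFD and 0.253 on ND in WT, and 8.68 on HFD and 0.105 on ND in SP.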

How the results depend on the processing

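Car3 stayed higher on HFD in both genotypes under every alternative run. Over all kept cells its log2 ratio in WT (3.27) became 3.54 with all barcodes, 2.82 under 30% mitochondrial UMIs, 3.64 as a mean over cells and 3.46 with class shares held equal. In SP (5.54) it became 5.95 with all barcodes, 5.95 under 30% mitochondrial UMIs (5.946 and 5.945) and 6.33 with class shares held equal. In proximal tubule-like cells it became 2.94 under 30% mitochondrial UMIs and 3.77 as a mean over cells in WT (3.59), and 6.14 as a mean over cells in SP (6.75). The genes at or past 2-fold, 154 in WT and 189 in SP, became 1686 and 1731 with no filter on low levels and 62 and 71 with at least 50 CPM, since other numbers of genes enter. Of 382 alternatives for single members, 346 kept the sign of the ratio and 36 did not. All 55 alternatives of ratios at or past 2-fold kept it, but those ratios were taken for their size, so a kept sign is a weak check of them. Among the 36, the log2 ratio of Car3 in SP-HFD against WT-HFD went from -0.58 to 0.20 with class shares held equal. The HFD to ND log2 ratio of Car2 in SP went from 0.22 to -0.01 as a mean over all kept cells. In S1-S2-like cells it went from 0.27 to -0.10 under 30% mitochondrial UMIs. No paired analysis was possible because each condition has 1 library. Depth limits Car13 and the rare classes.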
